A study of Mus musculus with 23 samples.

Results

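Hematopoietic stem cells (HSC) without p110α and p110δ were compared with wild-type (WT) HSC by setting the 3 arrays titled p110αδ DKO HSC against the 3 titled WT HSC. These are 6 of the 23 arrays of the series, and the arrays were chosen by their titles alone. The series also holds p110α-/- HSC and p110δ-/- HSC (here alphaKO and deltaKO, 3 arrays each), and lymphoid-primed multipotent progenitors (LMPP) of the same 4 genotypes. All cells came from the marrow of mice that had received transplants, which was pooled before the sort, and each array measured RNA of 1 sorted sample. The sort gate for HSC took c-Kit-positive cells that lacked lineage markers, Flk2 and CD48 and carried CD150. Each HSC group had 2 male samples and 1 female sample. The labels give no age, strain, allele or Cre driver, and do not say whether the recipients' own cells contributed to the sorted marrow. Nor do they say whether the 3 arrays of a genotype represent separate pools, so the p-values reflect only the spread between these samples, and that spread may be technical.

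Class I phosphoinositide 3-kinase (PI3K), of which p110α and p110δ are alternative catalytic subunits, phosphorylates a membrane lipid when receptors for cytokines, growth factors or adhesion ligands are engaged. The lipid product recruits the kinase AKT, which restrains FOXO transcription factors and feeds the mTOR growth pathway, and PI3K signals also reach the RAS and ERK pathway that drives immediate early genes. Most HSC in adult marrow are quiescent, and FOXO factors and PI3K activity are known to bear on whether they stay so. p110α is broadly expressed, whereas p110δ is found mainly in leukocytes.

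Values are log2 RMA expression values per transcript cluster, the array's unit for 1 gene or transcript. The medians of the 6 arrays ran from 4.83 to 5.01, no pair of arrays held identical values, and the mean correlation of an HSC array with the others was 0.984 for HSC WT replicate 3 and 0.988 to 0.991 for the rest. The stem cell receptor gene Tek (the angiopoietin receptor) lay between 9.94 and 10.73 on the 6 arrays, compared with a mean of 5.64 in LMPP WT. Neutrophil and monocyte genes were uneven within the groups. Camp, a neutrophil granule peptide, measured 7.27, 13.53 and 7.08 in DKO replicates 1, 2 and 3, and 12.96, 12.16 and 10.67 in WT replicates 1, 2 and 3. The summed level of the 17 measured neutrophil and monocyte markers, on the log2 scale, was 10.41, 14.96 and 10.57 in DKO and 14.41, 13.74 and 12.36 in WT. DKO replicate 2 therefore held the highest level of these transcripts among the 6 arrays and the other DKO arrays the lowest. Of the 17 markers 5 had a higher and 12 a lower mean in DKO, none passed the test and only Clec7a, a receptor for fungal glucans, separated the groups. The part of these transcripts in the results below was not tested. As the samples are bulk RNA, fewer cells of a type and less RNA per cell cannot be told apart.

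Loss of both isoforms was accompanied by higher mean levels of the survival kinase gene Pim2, the cyclic nucleotide phosphodiesterase gene Pde2a, the GTPase genes Gimap4 and Gimap6 and the adhesion gene Ncam2, and by lower mean levels of Nr4a1, Klf4, Dusp4, Cdkn1a and genes of mitosis. None of these genes passed the adjusted threshold. Of 32978 clusters tested with limma across the 12 HSC arrays, 3 (0.0091%) had an adjusted p under 0.05, 1 higher and 2 lower in DKO, and none of the 3 is a well-characterised gene. At an unadjusted p under 0.05, 2784 clusters differed, 1873 higher (5.68%) and 911 lower (2.76%). In 2992 clusters (9.07%) all DKO arrays were above all WT arrays, and in 1687 (5.12%) all were below. The balance of directions depended on the scaling: when the arrays were set to equal medians, 1130 clusters were higher and 1576 lower at an unadjusted p under 0.05. The median difference of all clusters was 0.05 on the log2 scale and the median standard error (SE) was 0.20.

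**Figure D1:**
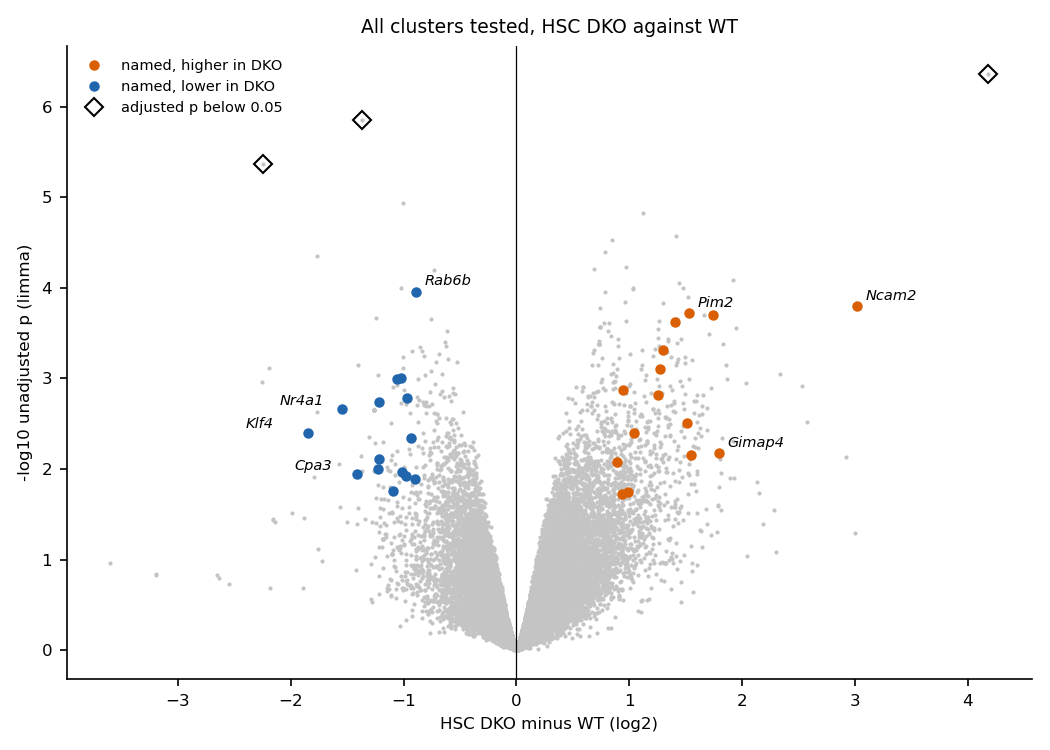
Log2 difference (HSC DKO minus WT, horizontal) against -log10 of limma's unadjusted p (vertical) for the 32978 clusters tested, with the 30 genes chosen by rule in colour and the 3 clusters at an adjusted p under 0.05 as open diamonds. Ncam2 at 3.02 stands far to the right, and the 3 called clusters lie above every named gene.

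Gene symbols were available only for clusters that the authors' comparison tables list. List members called measured here are tested genes with such a symbol. Of 279 such genes that were tested, 31 come from the table of this very comparison, which was drawn up from the same 6 arrays, and all 31 separated the groups, 12 higher and 19 lower. They are not independent evidence of direction. Of the 233 genes named only through the LMPP tables, 14 (6.01%) separated the groups upward and 15 (6.44%) downward. The shares over all clusters were 9.07% and 5.12%. The 15 named genes per direction described next were the ones with the smallest unadjusted p among genes with no overlap between the groups and a 1.5-fold difference or more, so their separation is part of the choice.

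Among genes of signal transduction with higher levels, Pim2 encodes a serine/threonine kinase that favours survival and protein synthesis and is induced by cytokines. Pim2 measured 10.59, 9.91 and 10.02 in the DKO arrays and 8.21, 8.52 and 9.20 in the WT arrays, a difference of 1.53 (SE 0.27, 2.89-fold; adjusted p = 0.193 by limma). WT replicate 3 was the nearest to the DKO arrays, and the groups did not overlap. Pde2a, whose product hydrolyses cyclic AMP and cyclic GMP, measured 9.45, 10.21 and 9.22 in DKO and 7.60, 7.93 and 8.12 in WT, a difference of 1.74 (SE 0.31). Il1r1, the signalling receptor for interleukin-1, was tight in DKO at 7.01, 7.09 and 7.14 and spread in WT at 5.83, 6.76 and 5.52. The DKO arrays lay above WT for both genes, by a narrow margin for Il1r1.

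The promoter of Pim2 is shown because all DKO arrays lay above all other HSC arrays for this gene. The sequence is the 250 bases before the RefSeq start on the gene's strand (GRCm38.p6, chrX:7878056-7878305, plus strand), and capitals mark the octamer ATGCAAAT or its reverse complement, bound by POU factors.
Pim2: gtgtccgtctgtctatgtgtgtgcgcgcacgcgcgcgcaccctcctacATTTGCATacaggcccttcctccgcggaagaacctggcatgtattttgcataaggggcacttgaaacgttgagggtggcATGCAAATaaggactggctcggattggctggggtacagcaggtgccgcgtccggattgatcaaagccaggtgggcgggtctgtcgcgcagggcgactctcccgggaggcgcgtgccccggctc
The octamer occurs at 2 places in this window, 116 to 123 and 195 to 202 bases before the start. It was looked for after the sequence had been seen, on both strands, and 1.6% of the 32851 RefSeq promoter windows of the same length hold it at least once. GC content was 62% in the window, compared with a median of 52.4% over all windows.

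Both members of the GIMAP family that had a symbol, GTPases known from lymphocyte survival, were higher. Gimap6 measured 11.00, 11.39 and 11.04 in DKO and 9.78, 9.87 and 9.56 in WT, a difference of 1.41 (SE 0.26), with a clear gap between the groups. Gimap4 measured 9.67, 10.49 and 9.67 in DKO and 7.44, 7.53 and 9.46 in WT. WT replicate 3 nearly reached the DKO level of Gimap4, and the 3.48-fold difference of the group means (SE 0.54 on the log2 scale) was 2.46 on the log2 scale without that array.

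The largest difference of any named gene was at Ncam2, an adhesion molecule of the immunoglobulin superfamily best known from neurons. It measured 9.43, 9.25 and 9.30 in DKO and 6.27, 6.14 and 6.50 in WT, a difference of 3.02 (SE 0.53, 8.11-fold; adjusted p = 0.193 by limma). Both groups were tight, with about 3 log2 units between them, whereas the single knockouts spread from 6.03 to 8.42 and widened the shared SE. In a fit of the 6 DKO and WT arrays alone the SE was 0.15 and Ncam2 was the 1 cluster that passed, with an adjusted p of 0.0134 by limma. The other 4 measured members of the adhesion list (Itgam, Itgb2, Cd44 and Ncam1) had means below WT, by 0.08 to 0.64, with overlapping groups.

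The Ncam2 promoter window (GRCm38.p6, chr16:81200447-81200696, plus strand, RefSeq) is shown as that of the gene with the largest difference, and none of the motifs searched for was in it.
Ncam2: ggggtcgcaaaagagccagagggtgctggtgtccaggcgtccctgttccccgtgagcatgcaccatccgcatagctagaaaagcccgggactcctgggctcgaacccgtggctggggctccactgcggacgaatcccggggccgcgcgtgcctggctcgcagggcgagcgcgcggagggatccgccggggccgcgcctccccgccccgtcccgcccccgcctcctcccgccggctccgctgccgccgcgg
Its GC content was 75.2%, and it holds 32 CpG dinucleotides against a median of 6 over all windows.

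Of the 31 genes of the HSC identity list only 3 had a symbol and were tested, and all 3 had higher means in DKO. Vwf was named through the table of this comparison, Tek and Selp through LMPP tables only. Vwf, a clotting glycoprotein gene that marks platelet-biased stem cells, measured 9.94, 9.29 and 10.15 in DKO and 8.61, 8.54 and 9.26 in WT. Selp, which encodes the adhesion receptor P-selectin, measured 12.69, 12.79 and 12.82 in DKO and 12.26, 12.45 and 12.05 in WT. DKO arrays were above WT arrays for both, only just for Vwf, whereas the groups overlapped for Tek (difference 0.22, SE 0.24). Over all clusters 9.07% separated the groups upward. Vwf and Selp are also megakaryocyte genes and were the only 2 megakaryocyte markers with a symbol.

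The other named genes with higher levels were of mixed function. Ndrg2, of the N-myc downstream-regulated family, measured 11.74, 11.63 and 12.04 in DKO and 10.32, 11.05 and 10.22 in WT. Dhrs3, which reduces retinaldehyde to retinol, measured 10.52, 10.68 and 10.91 in DKO and 9.02, 9.58 and 8.97 in WT. Plxdc2, a transmembrane protein with a plexin-like domain, measured 12.14, 12.09 and 12.60 in DKO and 11.21, 11.25 and 11.69 in WT. All 3 genes were abundant in both genotypes and shifted by 1.27, 1.52 and 0.89 on the log2 scale. Aspa (aspartoacylase), Clcn6 (an endosomal chloride transporter), Pou5f2, the pseudogene Tdgf1-ps2 and Phxr4 differed by 0.94 to 1.55. Adjusted p by limma for the 15 genes with higher levels lay between 0.193 and 0.516.

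**Figure D2:**
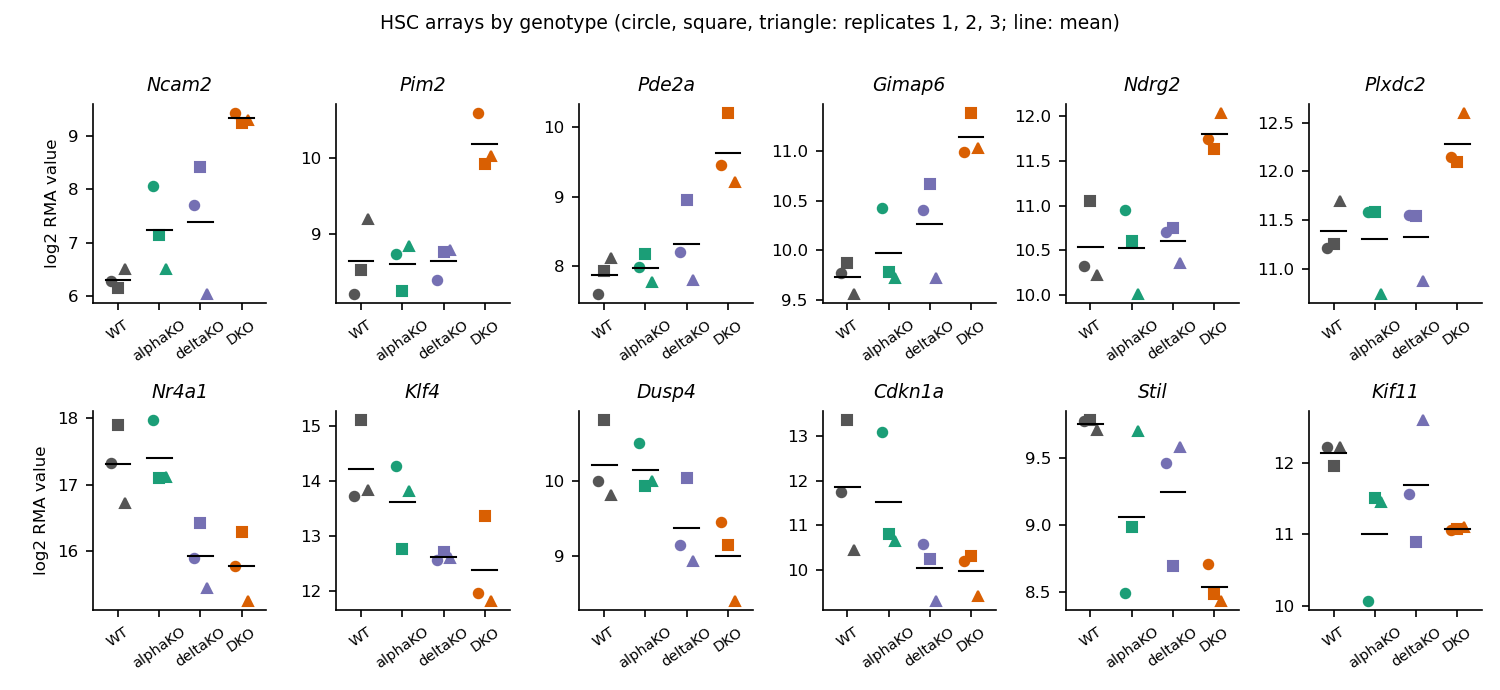
Log2 RMA values (vertical) of 12 genes on the 12 HSC arrays by genotype (horizontal), with a line at each group mean. In the upper row the DKO arrays lie above all other arrays, and in the lower row Nr4a1, Klf4, Dusp4 and Cdkn1a have low means in both deltaKO and DKO.

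Immediate early genes, which encode transcription factors induced within minutes of a growth signal, had lower means in DKO for all 4 measured members, with a median difference of -1.31 against 0.05 for all clusters. Nr4a1, an orphan nuclear receptor known for restraining HSC division, measured 15.78, 16.30 and 15.25 in DKO and 17.33, 17.90 and 16.73 in WT, a difference of -1.54 (SE 0.38; adjusted p = 0.306 by limma). Klf4, a zinc finger factor tied to cell cycle exit, measured 11.96, 13.37 and 11.81 in DKO and 13.73, 15.12 and 13.83 in WT, a difference of -1.85 (SE 0.50). DKO replicate 2 and WT replicate 2, which the numbering does not pair, were the highest arrays of their genotypes for each gene. The groups did not overlap. Fosl2 and Klf2 differed by -1.07 and -0.80 with overlapping groups. Nr4a1 was named through the table of this comparison, Klf4 through another HSC table, and Fosl2 and Klf2 through LMPP tables only. The list's median was -1.87 without WT replicate 3. With 1 array left out, Nr4a1 ran from -1.837 to -1.253 and Klf4 from -2.342 to -1.402.

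The promoters of Nr4a1 (GRCm38.p6, chr15:101266596-101266845, plus strand) and Klf4 (chr4:55532476-55532725, minus strand) are shown because these genes had the largest differences of the list, and Nr4a1 is a classical target of factors that bind cyclic AMP response elements. Capitals mark TGCGTCA, a variant of that element, in Nr4a1 and its core CGTCA in Klf4. Both are RefSeq windows read on the gene's strand. The start used for Nr4a1 lies 12944 bases from the outermost start of the gene in RefSeq, against 0 for Klf4.
Nr4a1: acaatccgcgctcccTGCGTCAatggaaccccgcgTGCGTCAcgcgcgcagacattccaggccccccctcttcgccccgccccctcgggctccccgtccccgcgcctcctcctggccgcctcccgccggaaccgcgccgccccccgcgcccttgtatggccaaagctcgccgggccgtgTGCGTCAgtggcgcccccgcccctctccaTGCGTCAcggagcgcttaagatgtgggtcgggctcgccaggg
Klf4: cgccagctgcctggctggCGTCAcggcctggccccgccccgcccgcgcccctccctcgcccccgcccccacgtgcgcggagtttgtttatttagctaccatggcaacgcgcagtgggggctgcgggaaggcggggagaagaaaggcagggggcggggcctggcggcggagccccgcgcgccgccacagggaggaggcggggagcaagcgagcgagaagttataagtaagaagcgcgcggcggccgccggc
TGCGTCA occurs 4 times in the Nr4a1 window, at 36 to 42, 65 to 71, 209 to 215 and 229 to 235 bases before the start. Both motifs were looked for after the sequences had been seen. It occurs at least once in 1.75% of the 32851 windows, and the Nr4a1 window is the 1 window with 4 copies. CGTCA occurs once in the Klf4 window and at least once in 17.8% of all windows; TGCGTCA holds this core. Neither window holds the full element TGACGTCA (1.55% of all windows), the AP-1 site TGANTCA (6.75%), the FOXO site GTAAACA (3.17%) or a CArG box (1.47%), all searched on both strands. Of the 30 named genes 24 had a window, and 3 held one of these planned motifs, Aspa a CArG box, Fam83d an AP-1 site and Ndrg2 a FOXO site at 1 of its starts.

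Feedback inhibitors of the ERK pathway are transcribed in proportion to ERK activity in many cells. Of the list 3 members were measured, 1 of which, Bambi, is better known from another pathway. All 3 had lower means and separated the groups, against 5.12% of all clusters, with a median of -1.09. Dusp4, a phosphatase that inactivates ERK and related kinases in the nucleus, measured 9.46, 9.14 and 8.39 in DKO and 10.01, 10.82 and 9.82 in WT. Spry2, an inhibitor of receptor tyrosine kinase signalling, measured 9.55, 9.17 and 8.61 in DKO and 10.27, 10.62 and 9.71 in WT. DKO replicate 1 came nearest to WT for both. Bambi, a decoy receptor of the TGF-β family, differed by -0.82 (SE 0.38) and by -0.38 without WT replicate 2. Spry2 is in the authors' table of this comparison, and the other members were named through LMPP tables.

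Of 9 measured genes of the list of p53 targets and growth arrest, 8 had lower means in DKO, with a median of -1.01, and 3 separated the groups, against 5.12% of all clusters. All 9 names come from LMPP tables only. Cdkn1a, the cyclin-dependent kinase inhibitor p21, measured 10.20, 10.32 and 9.41 in DKO and 11.75, 13.38 and 10.45 in WT, a difference of -1.88 (SE 0.78; adjusted p = 0.575 by limma). Plk2, a kinase induced by stress, measured 10.28, 10.40 and 10.39 in DKO and 11.89, 12.35 and 10.67 in WT. WT replicate 2 was the highest and WT replicate 3 the lowest WT array for both genes, with replicate 3 just above DKO. Without WT replicate 2 the median of the list was -0.46, Cdkn1a was at -1.12 and Ddit3, which separated the groups at -1.17, was at -0.63. That array was also the highest of the 6 for the stress genes Ddit3, at 11.80 against 9.41 to 10.27 for the others, and Gadd45b, at 12.51 against 10.13 to 11.04, and whether handling of that sample bears on these genes was not tested.

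Genes of inflammation and NF-kB were divided. Ptgs2, the inducible cyclooxygenase, measured 8.21, 9.05 and 8.66 in DKO and 9.92, 9.61 and 9.30 in WT, a difference of -0.97 (SE 0.23), and the groups did not overlap. Tnfaip3, the A20 inhibitor of NF-kB, differed by -1.21 (SE 0.47) with overlapping groups, and Il1r1, above, was higher. Over the list 2 of 8 means were higher and 6 lower, with a median of -0.39.

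Genes of spindle and chromosome segregation had lower means in DKO. In the list of mitosis and S phase 7 of 8 members were lower and separated the groups, against 5.12% of all clusters, with a median of -0.91, and the replication licensing gene Cdc6 was the exception at 0.05. Because 6 of the 7 were named through the table of this comparison and Bub1 through another HSC table, this count is not independent of the same arrays. Kif11, the motor that pushes spindle poles apart, measured 11.06, 11.07 and 11.10 in DKO and 12.22, 11.96 and 12.23 in WT, a difference of -1.06 (SE 0.44; adjusted p = 0.575 by limma). Stil, needed for centriole duplication, measured 8.71, 8.49 and 8.43 in DKO and 9.78, 9.79 and 9.71 in WT. Both groups were tight and well apart for these genes. Ect2, Aspm, Kif4, Top2a, Cenpe and Bub1, which act in cytokinesis, spindle poles, chromosome structure and the spindle checkpoint, differed by -1.09 to -0.83. Fam83d, a spindle protein named by the rule, differed by -0.90.

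The remaining named genes with lower levels belonged to no common list. Rab6b, a small GTPase of Golgi traffic, measured 4.97, 5.01 and 5.13 in DKO and 5.74, 5.98 and 6.05 in WT and had the smallest adjusted p of the named genes (0.184 by limma). Its DKO values were low, close to the log2 4.95 that served as the filter cut-off. Cpa3, a carboxypeptidase of mast cell granules, measured 6.52, 6.17 and 7.30 in DKO and 7.47, 8.28 and 8.47 in WT. The groups were apart for both, with the narrower gap at Cpa3. All 4 measured mast cell, basophil and eosinophil markers had lower means in DKO, but Hdc, Epx and Ear1 differed by only 0.18 to 0.42 below WT with overlapping groups. Mdga1 (a membrane-anchored adhesion protein), Vamp3 (a vesicle fusion protein), Herpud1 (of the endoplasmic reticulum stress response), Mex3b (an RNA-binding protein) and Atg101 (of the kinase complex that starts autophagy) differed by -1.23 to -0.93. Without WT replicate 2, Vamp3 was at -0.74 and Herpud1 at -0.61. Adjusted p by limma for the 15 genes with lower levels lay between 0.184 and 0.514.

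Genes of the PI3K pathway itself had means on both sides of WT. In the PI3K, insulin and FOXO list 3 of 5 measured means were higher and 2 lower, with a median of 0.14. Irs2 and Insr, the insulin receptor substrate and the insulin receptor, which FOXO factors induce when PI3K is inhibited in several tissues, differed by 0.25 (SE 0.70) and 0.14 (SE 0.18). Bcl6, a transcriptional repressor that FOXO factors also induce, differed by -0.37. It was the 1 member of this list that separated the groups, against 5.12% of all clusters in that direction. Klf2, a FOXO target that is also in the immediate early list, had the largest difference of this list, -0.80 (SE 0.41), with overlapping groups. Of the mTOR and autophagy list, Deptor, an mTOR inhibitor, differed by 0.34, the mTOR complex subunit Rictor by -0.01 and the autophagy receptor Sqstm1 by -0.79. The 3 measured interferon response genes (Ifit2, Ddx58 and Irgm2) lay between -0.38 and 0.22. Deptor (above WT) and Ddx58 (below WT) also separated the groups, as 9.07% of all clusters did above and 5.12% below. No member of these 3 lists passed the test. Macrophage (Vcam1 and Slc40a1) and plasma cell (Jchain) markers were within 0.27 of WT and below 5.3 on all 6 arrays.

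**Figure D3:**
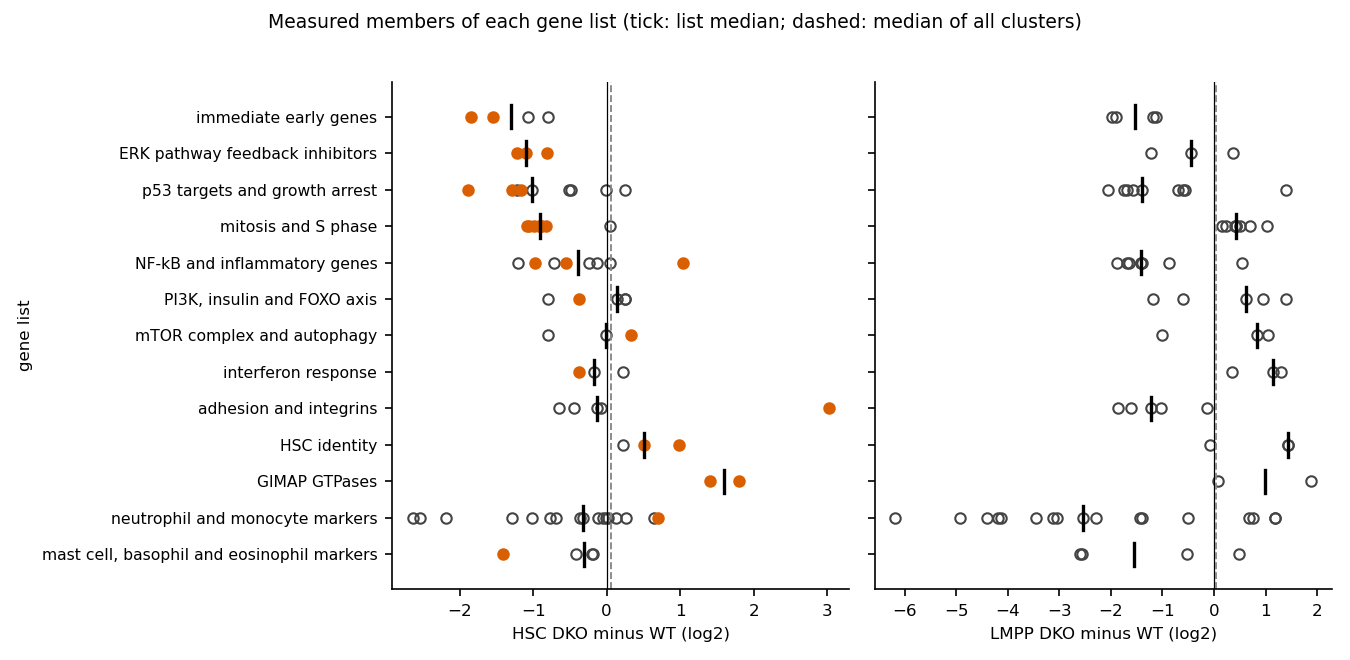
DKO minus WT on the log2 scale (horizontal) for each measured member of 13 gene lists (vertical) in HSC, left, and LMPP, right, with a tick at the list median and a dashed line at the median of all clusters. Filled points in the left panel are genes whose HSC DKO and WT arrays did not overlap, and members of the mitosis list lie mostly below 0 in HSC and all above 0 in LMPP.

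For the 3 clusters past the adjusted threshold the deltaKO arrays lay on the same side of WT as the DKO arrays. Cluster TC0400001906, a chromosome 4 transcript without a symbol, measured 9.42, 8.94 and 9.92 in DKO and 5.19, 5.73 and 4.82 in WT, so it rose by 4.18 (SE 0.38, 18.2-fold; adjusted p = 0.0145 by limma). In deltaKO it measured 10.05, 9.64 and 8.67, in alphaKO its mean was 5.43, and in LMPP the DKO and WT difference was 2.92. Its level thus split the HSC arrays by p110δ genotype. LOC100861716, a predicted gene on the same chromosome, fell by 1.37 on the log2 scale (SE 0.14; adjusted p = 0.0231 by limma), from 6.83, 6.96 and 6.74 in WT to 5.41, 5.50 and 5.52 in DKO, with deltaKO between them at 5.73, 6.02 and 6.26. The targeted p110δ gene, Pik3cd, lies on chromosome 4 too, as do the named genes Klf4, Stil, Dhrs3, Clcn6 and Vamp3 by their identifiers. Whether sequence linked to the targeted gene bears on these values was not tested.

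Gm5945, a predicted gene of the X chromosome, was the third. It measured 6.34, 5.79 and 5.72 in DKO and 7.56, 8.50 and 8.53 in WT, so it fell by 2.25 (SE 0.26; adjusted p = 0.0472 by limma). The deltaKO arrays were at 6.31, 6.40 and 6.75 and alphaKO had a mean of 8.13. X-linked clusters with neighbouring identifiers also had low means in both deltaKO and DKO, without passing the test. Gm2411 differed by -2.25, cluster TC0X00001208 by -2.19 and cluster TC0X00001213 by -1.76, and in each the DKO and WT arrays did not overlap. Predicted genes of this kind can have near-identical copies, so their values are uncertain as measurements of 1 gene. The 3 calls also depended on single arrays. Without DKO replicate 3 or WT replicate 3 no cluster passed, and without DKO replicate 2, WT replicate 1 or WT replicate 2 only 1 did, compared with 5 without DKO replicate 1.

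**Figure D4:**
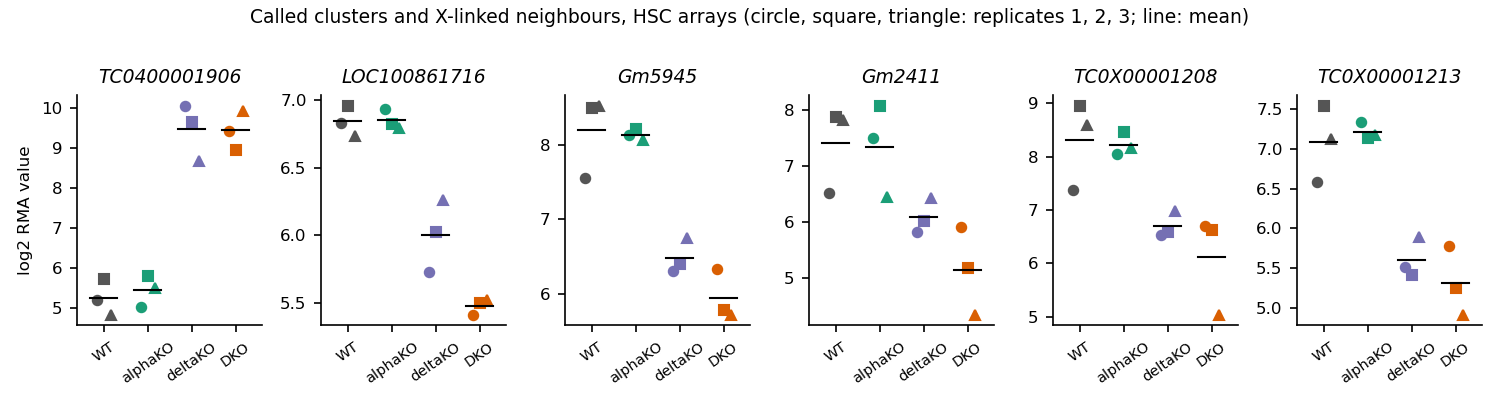
Log2 RMA values (vertical) of the 3 clusters past the adjusted threshold and of 3 X-linked neighbours on the 12 HSC arrays by genotype (horizontal), with a line at each group mean. In all 6 panels deltaKO and DKO lie on 1 side and WT and alphaKO on the other, except that the highest deltaKO arrays of Gm2411 come close to the lowest WT and alphaKO arrays.

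The single knockouts show whether loss of 1 isoform was accompanied by the same levels. They share the WT arrays with the double knockout comparison, so their differences from WT are given side by side. Pim2 was at -0.03 in alphaKO and 0.01 in deltaKO, compared with 1.53 in DKO. Ndrg2 was at -0.01 and 0.07, compared with 1.27, and Plxdc2 at -0.08 and -0.06, compared with 0.89. For these 3 genes the mean of each single knockout was close to the WT mean. Pde2a (0.10 and 0.44), Gimap4 (0.17 and 0.24) and Gimap6 (0.25 and 0.53) had small differences in the single knockouts, and Ncam2 had intermediate ones, 0.93 in alphaKO and 1.08 in deltaKO. In these 7 of the 15 named genes with higher levels all DKO arrays lay above all 9 other HSC arrays, and for the 15 with lower levels the count was 1 (Herpud1). The choice of named genes by p and fold in the same fit favours such a separation. Over all clusters 167 (0.506%) lay above and 123 (0.373%) below all 9 other arrays. Among clusters already apart from WT, as all named genes were, the shares were 5.58% above and 7.29% below. The shares of the named genes were 46.7% above and 6.67% below, the latter near that of such clusters.

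Some other genes were near the DKO level already in 1 single knockout. Vwf differed from WT by 1.05 in deltaKO, Clcn6 by 0.91 and Phxr4 by 1.28, with 0.28, 0.30 and 0.35 in alphaKO. Among lower genes Nr4a1 was at -1.40 in deltaKO and 0.08 in alphaKO, Klf4 at -1.60 and -0.62, Ptgs2 at -1.26 and -0.10, and Rab6b at -0.89 and 0.00. These genes thus had shifted means in both groups that lack p110δ. Such a pattern did not hold for all named genes. Fam83d was at -0.995 in alphaKO and -0.43 in deltaKO, compared with -0.896 in DKO. Mdga1 (-0.869 and -0.714), Pou5f2 (0.87 and 1.121) and Aspa (0.863 and 0.62) were shifted in both alphaKO and deltaKO. The mitosis list had medians of -1.02 in alphaKO and -0.46 in deltaKO, both below WT. Immediate early genes had medians of -0.26 in alphaKO and -1.06 in deltaKO. ERK feedback inhibitors had -0.07 and -0.84, and the p53 list -0.47 and -0.87.

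Whether the double knockout departed from the sum of the single knockouts was tested by an interaction contrast. No cluster passed (0% of 32978; smallest adjusted p = 1.0 by limma), and 676 did at an unadjusted p under 0.05, compared with 1429 without HSC deltaKO replicate 3. The interaction was 1.56 for Pim2, 1.04 for Plxdc2 and 1.39 for Gimap4, each with an adjusted p of 1.0 by limma. In the direct contrasts 4 clusters (0.0121%) separated DKO from alphaKO, namely the 3 above and TC0500001100, which has no symbol. None (0%) separated DKO from deltaKO, where 1011 clusters had an unadjusted p under 0.05.

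In LMPP, which carry the opposite Flk2, CD150 and CD48 phenotype and were measured on other arrays, the same genes were read in the double knockout. Nr4a1 was at -1.98, Klf4 at -1.90, Dusp4 at -1.23, Herpud1 at -1.05 and Gimap4 at 1.89 in LMPP DKO minus WT. Plxdc2 was at 1.82 there, more than its 0.89 in HSC. The higher level of Ncam2 was not seen in LMPP, where the difference was -0.14. The difference of the effects between the cell types was 3.16 for Ncam2 (SE 0.62) and missed the threshold (adjusted p = 0.121 by limma). Vwf, Aspa and Gimap6 were at -0.08, -0.33 and 0.08 in LMPP, and Atg101 was at 1.63 against -0.98 in HSC. Unlike Vwf, the HSC identity genes Tek and Selp were at 1.426 and 1.433 in LMPP, more than their 0.22 and 0.512 in HSC. All 8 members of the mitosis list had higher means in LMPP DKO than in LMPP WT, with a median of 0.42 against -0.91 in HSC, and Kif11 was at 0.51. The test of the difference gave -1.57 for Kif11 (SE 0.62; adjusted p = 0.313 by limma). Markers of other cells also moved in LMPP: 13 of the 17 neutrophil and monocyte markers had lower means in LMPP DKO than in LMPP WT (median -2.54), and the plasma cell gene Jchain was at -4.53. The summed log2 level of the 17 markers reached 19.20 in LMPP DKO and 20.05 in LMPP WT, with a lowest value of 16.46 in LMPP DKO, and their part in the LMPP values was not tested. LMPP WT has only 2 arrays, of which replicate 2 had a median of 5.29 against 4.87 to 5.04 for the other LMPP arrays, and the labels do not say whether LMPP and HSC were sorted from the same pools.

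**Figure D5:**
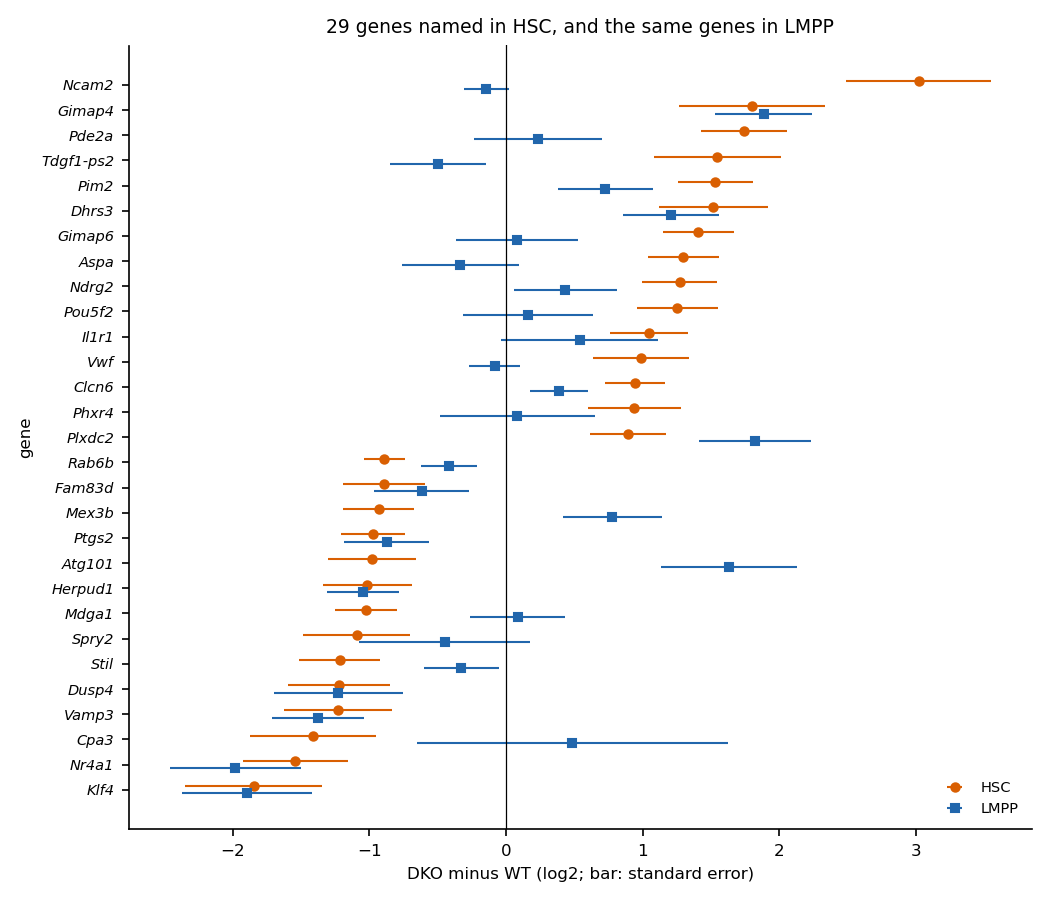
DKO minus WT on the log2 scale with its standard error (horizontal) for 29 genes named in HSC (vertical), in HSC (circles) and in LMPP (squares). Klf4 lies at -1.85 and -1.90 in the 2 cell types, whereas Ncam2 lies at 3.02 and -0.14; for none of these genes did the difference between cell types pass the test.

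Over all clusters, 5 (0.0152%) had a DKO effect that differed between HSC and LMPP, and 4 of them are immunoglobulin heavy chain variable genes of B cells. In HSC these genes were near the floor of the arrays in both genotypes, with Ighv1-5 between 4.47 and 5.25 in DKO and between 4.77 and 5.29 in WT. In LMPP, Ighv1-5 measured 11.21 and 12.21 in WT and 4.95 to 5.49 in DKO. The difference therefore lay in high LMPP WT values.

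The clusters that the authors list for LMPP were also read in HSC, where no array is shared with the LMPP comparison. Of 249 tested clusters listed as higher in LMPP DKO, 53 (21.3%) had all HSC DKO arrays above all HSC WT arrays and 4 (1.61%) below, with a median of 0.36 in HSC. Of 124 listed as lower, 14 (11.3%) were below and 3 (2.42%) above, with a median of -0.15. The shares over all clusters were 9.07% above and 5.12% below, and most of the listed clusters overlapped between the HSC groups. The tables of the single LMPP knockouts gave larger shares, smaller shares or shares that went the other way. Of 418 tested clusters listed as higher in LMPP deltaKO, 103 (24.6%) were above WT in HSC DKO (median 0.54), and of 294 listed as lower, 12 (4.08%) were below. Of 225 listed as higher in LMPP alphaKO, 22 (9.78%) were above, and of 53 listed as lower, 12 (22.6%) were above and 0 below (median 0.38). Upward separation in HSC was thus not particular to clusters listed for the LMPP double knockout. Downward, among these tables only the clusters listed as lower in LMPP DKO (11.3%) exceeded the 5.12% of all clusters.

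The authors' deposited table of this comparison lists 251 clusters, 204 higher and 47 lower in DKO, whose absolute folds start at 2.01 and whose unadjusted p-values end at 0.0494. Its averages were matched for 100% of the clusters, within 0.006 log2 units, by the biweight averages of these 6 arrays. The smallest FDR p-value in the authors' deposited table is 0.433, so none of its entries passed an FDR of 0.05 there. In the authors' deposited table the largest folds with a usable symbol were 8.1 for Ncam2, 3.26 for Dhrs3, 2.98 for Pde2a and 2.81 for both Aspa and Ndrg2. Downward, the authors' deposited table gives -3.33 for Cpa3, -2.91 for Nr4a1, -2.51 for Mex3b, -2.48 for Stil and -2.32 for Mc5r, a melanocortin receptor.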

How the data were processed

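Per the labels, Expression Console was the authors' tool for the deposited log2 values, 1 RMA value for each transcript cluster and array. The submitters' processing notes also name Transcriptome Analysis Console. Not given in the sources used here: software versions, genome build and annotation release. The authors' comparison tables hold, per the file headers, biweight averages (log2), a linear fold change with a sign, treated as a score because it is below 0 for lower levels, and p-values with and without FDR adjustment. Gene symbols came only from these tables: of 1617 listed clusters 524 carry exactly 1 symbol and 305 could be named.

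Of 72688 rows 6732 were array controls and were left out. A cluster entered the tests if its 23-array mean was no lower than the median cluster's, log2 4.95. The 12 HSC arrays were fitted with limma 3.58.1 (lmFit and eBayes, 1 mean per genotype) in R 4.3.3, with Benjamini-Hochberg adjustment over the 32978 clusters and a threshold of 0.05. The comparison with LMPP used a fit of all 23 arrays in 8 groups. The fit was tested on simulated data. Tables were made in Python 3.11.15 with pandas 2.3.3, and figures with matplotlib 3.10.9. Alternatives were other filters, scalings, variance models, sex as a covariate, the DKO and WT arrays alone, and each array left out in turn. Replicates were numbered in accession order and pair nothing. Precision is limited by the number of arrays.

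The text names every cluster past the threshold. It also names, per direction, the 15 genes with the smallest unadjusted p among non-overlapping genes of at least 1.5-fold, leaving out predicted genes, small RNAs and receptor families. Further names are list members, with values for the 2 with the smallest p, the 5 largest deposited folds and examples among other members. The comparison, the 23 gene lists and the rules were chosen with earlier results of these data known. No T cell, natural killer cell, erythroid or mitochondrial list member had a symbol. Pik3ca and Pik3cd, the targeted genes, and the sort markers were not analysed here. Of the genes the rule picks, 1 is not reported here. Promoter windows (250 bases before each RefSeq start) are those of RefSeq, GRCm38.p6.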

Additional observations from a re-analysis of the deposited data

Results flagged for a closer look

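The effect of losing both isoforms differed between HSC and LMPP for 5 clusters, tested by limma in the fit of both cell types. The log2 difference of the effects was 3.37 for Ighv1-62-1, 6.24 for Ighv1-5 and 1.91 and 3.76 for 2 other immunoglobulin heavy chain variable genes of the Ighv1 family, and 1.46 for cluster TC0600003143, which has no symbol. For the 4 immunoglobulin genes the HSC difference lay between -0.23 and 0.26, and the LMPP difference between -6.46 and -1.66. The result rests on 2 LMPP WT arrays: without LMPP WT replicate 1 the count was 4991, without replicate 2 it was 8, and without LMPP DKO replicate 3 it was 31. A search for outlying samples was not made, as each group holds 3 arrays or fewer.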

How the results depend on the processing

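The count of clusters called in HSC DKO against WT, 3, was 1 with the stricter filter (clusters above the upper quartile of the cluster means), 1 with the DKO and WT arrays alone, 5 with trend and robust variance and 5 with array weights. It was 2 without a filter, 4 with equal array medians and 2 after quantile normalization, and it ran from 0 to 5 when 1 HSC DKO or WT array was left out. At an unadjusted p under 0.05, 1237 clusters were higher and 1336 lower after quantile normalization, and 745 were higher and 578 lower with the stricter filter. Without a filter 5022 clusters reached that level, and 1796 did without HSC DKO replicate 3. The interaction gave 0 clusters under every alternative run. Its count at an unadjusted p under 0.05, 676, was 1715 without a filter, 205 with the stricter filter, 1029 with array weights and 1429 without HSC deltaKO replicate 3. The count of effects that differ between HSC and LMPP, 5, was 13 without a filter, 0 with the stricter filter and 3 with array weights, and ran from 3 to 4991 when 1 array was left out. The 4991 came without LMPP WT replicate 1, where the lone LMPP WT array is assumed to vary like the other groups; the cause was not tested. Of 796 values for 54 genes and clusters, 772 kept their direction and side of the threshold, 19 lost the call of 1 of the 3 clusters, and Ncam2 passed with the DKO and WT arrays alone. The other 4 changed sign: with 1 array left out, Hdc ran from -0.33 to 0.004 and Irgm2 from -0.26 to 0.57, with the sign changed without HSC WT replicate 2, and Vcam1 ran from -0.36 to 0.016, with the sign changed without HSC DKO replicate 1 (0.004) or 3. Of 206 list medians 6 moved by more than the spread between arrays. No paired analysis was possible because the replicate numbers were given in accession order. With 3 arrays per group, genes at the floor of the array cannot be told from absent ones.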
